A study of Mus musculus with 6 samples.

Results

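Kit, Flt3, Csf1r, Igf1r and Insr encode receptor tyrosine kinases, cell surface proteins that bind a ligand outside the cell and phosphorylate tyrosines inside it. These 5 genes were taken by symbol from 24376 genes measured in mouse fetal liver progenitors, and all 5 held enough counts to be tested. The question was whether a lower level of Kit after knockdown of Samd14 was particular to Kit among these receptors. For a wider comparison, 58 mouse receptor tyrosine kinase genes were listed by family, of which 25 held enough counts to be tested.

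Polyadenylated RNA was sequenced from blood progenitors of C57BL/6 mouse fetal liver at stage E14.5, grown outside the animal for 3 days in StemPro-34 medium. All cultures were infected with a retrovirus directly after the progenitors had been isolated, and 200000 cells negative for Ter119 and CD71, surface proteins of maturing red cells, were lysed for each library. The 3 control libraries carried a control short hairpin RNA, whose target is not given in the sources used here, and the 3 shSamd14 libraries carried a hairpin against Samd14. The groups therefore differ by hairpin, and the infection, strain, stage and culture were shared. Nothing in the labels ties the libraries of a group to separate animals or cultures; the p-values therefore cover the spread between these 6 libraries, and that spread may be technical.

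Receptor tyrosine kinases fall into families by the build of their extracellular domain. Kit, the receptor of stem cell factor, Flt3, the receptor of Flt3 ligand, and Csf1r, the receptor of CSF1 and IL-34, belong with the PDGF receptors to class III, whose members carry immunoglobulin-like domains outside the cell and a kinase domain split by an insert. Kit supports stem cells, early erythroid progenitors and mast cells, Flt3 supports early lymphoid and myeloid progenitors, and Csf1r supports monocytes and macrophages. Igf1r and Insr, the receptors of insulin-like growth factors and of insulin, are disulfide-linked dimers expressed in most tissues.

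Libraries held 20584169 to 26462797 estimated counts, so 3 counts corresponded to 0.111 to 0.145 CPM (counts per 1000000, scaled here with TMM factors). Samd14 itself, the gene the hairpin targets, was 82.0, 82.1 and 83.8 CPM in the control libraries and 41.9, 38.8 and 39.4 CPM in the shSamd14 libraries. Its log2 fold change was -1.05 (SE 0.062, adjusted p = 4.69e-07) in the quasi-likelihood test of edgeR, adjusted by Benjamini-Hochberg over 12670 genes, which is the test used for every adjusted p of a single gene here unless another is named. A gene is called changed at an adjusted p under 0.05, and by that rule 1.26% of tested genes were lower and 1.32% were higher in shSamd14. Groups did not overlap, every shSamd14 library being lower, for 10.2% of tested genes, and every shSamd14 library was higher for 10.5%. By the same rule DESeq2 called 239 genes lower and 189 higher, and limma-voom 153 lower and 158 higher. For counts at an unadjusted p under 0.05, and for those by DESeq2 or limma-voom, no share of all tested genes is given here.

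Kit (ENSMUSG00000005672) lies on chromosome 5 at 75574916 to 75656722 on the plus strand (mm10). It measured 656, 560 and 495 CPM in the control libraries and 474, 465 and 422 CPM in the shSamd14 libraries. All 3 shSamd14 libraries were below all 3 control libraries, and the control libraries were spread more widely, with control replicate 1 the highest. The means were 570 ± 81.2 CPM (SD, n = 3) and 454 ± 27.4 CPM (SD, n = 3), a fold of 0.795. The log2 fold change was -0.33 (SE 0.093, 95% interval -0.53 to -0.13), and the adjusted p of 0.0943 did not pass the threshold. A log2 fold change at or below that of Kit was found for 4.48% of all tested genes, and for 0.93% of the 2366 tested genes that averaged at least 100 CPM. The call for Kit turned on the fit: DESeq2 gave an adjusted p of 0.00834, and edgeR gave 0.0224 with no filter on low counts and 0.0222 without control replicate 3. Without control replicate 1 the log2 fold change was -0.22, with an adjusted p of 0.292.

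Flt3 (ENSMUSG00000042817; chromosome 5, 147330741 to 147400489, minus strand, mm10) lies far from Kit on the same chromosome. It measured 27.0, 23.7 and 28.8 CPM in the control libraries and 20.2, 22.8 and 22.3 CPM in the shSamd14 libraries. As for Kit, no shSamd14 library reached a control library, although shSamd14 replicate 2 came within 1 CPM of control replicate 2. The means were 26.5 ± 2.61 and 21.8 ± 1.34 CPM (SD, n = 3 each), a fold of 0.821. The log2 fold change was -0.28 (SE 0.09, 95% interval -0.48 to -0.09) with an adjusted p of 0.129, which did not pass. In TPM (transcripts per 1000000), which divides by the gene length estimated in each library, Flt3 measured 9.01, 7.42 and 9.34 in the control libraries and 6.35, 7.52 and 8.01 in the shSamd14 libraries, and the groups overlapped. That length ranged from 4771.12 to 5178.22 bases and was shortest in shSamd14 replicate 3. The gene overlaps Gm26597 on the opposite strand, as Csf1r overlaps Hmgxb3 and Insr overlaps Vmn2r-ps88 and Gm16180. Whether the counting used strand is not given in the sources used here.

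Csf1r (ENSMUSG00000024621; chromosome 18, 61100598 to 61132149, plus strand, mm10) varied more within the groups than between them. It measured 22.9, 17.0 and 31.9 CPM in the control libraries and 19.6, 20.7 and 30.3 CPM in the shSamd14 libraries. Replicate 3 was the highest of both groups, and the groups overlapped. The means were 24.0 ± 7.52 and 23.6 ± 5.89 CPM (SD, n = 3 each). The log2 fold change was -0.02 (SE 0.306, adjusted p = 0.982), and its 95% interval of -0.82 to 0.78 holds changes larger than that of Kit in either direction. Its sign turned to 0.24 without control replicate 3. Markers of monocytes and macrophages summed to 393, 285 and 541 CPM over control replicates 1 to 3 and to 407, 376 and 568 CPM over shSamd14 replicates 1 to 3, and were highest in replicate 3 of both groups, like Csf1r. Of the 14 markers in that list 9 were tested and none was called by edgeR, with 0 at an unadjusted p under 0.05 and 0 by DESeq2, while Cd5l and C1qa, markers of resident macrophages, were at 0 in all libraries. Markers of neutrophils also were highest in replicate 3, with sums of 3440, 3400 and 5440 CPM in control and 3730, 3940 and 5540 CPM in shSamd14; all 9 were tested and none was called (0 at an unadjusted edgeR p under 0.05, 0 by DESeq2). In bulk RNA a smaller number of cells of a type and less RNA in each cell cannot be told apart, and the part of monocytes in the level of Csf1r was not tested.

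Igf1r and Insr lay above their control means in all 3 shSamd14 libraries, and those means were 73.9 ± 4.89 CPM for Igf1r and 46.2 ± 5.02 CPM for Insr (SD, n = 3 each). Igf1r (ENSMUSG00000005533; chromosome 7, 67952827 to 68233668, plus strand, mm10) measured 79.0, 73.6 and 69.2 CPM in the control libraries and 76.6, 74.3 and 88.7 CPM in the shSamd14 libraries. Its groups overlapped, with shSamd14 replicate 3 the highest of the 6. The log2 fold change of Igf1r was 0.11 (SE 0.077, 95% interval -0.05 to 0.28) with an adjusted p of 0.545. Insr (ENSMUSG00000005534; chromosome 8, 3122061 to 3279617, minus strand, mm10) measured 51.9, 42.2 and 44.6 CPM in the control libraries and 48.8, 49.3 and 60.7 CPM in the shSamd14 libraries. Here too shSamd14 replicate 3 was the highest and the groups overlapped, because control replicate 1 exceeded shSamd14 replicates 1 and 2. The log2 fold change of Insr was 0.20 (SE 0.099, 95% interval -0.02 to 0.41) with an adjusted p of 0.381. Without shSamd14 replicate 3 the log2 fold changes were 0.026 for Igf1r and 0.083 for Insr, and without control replicate 3 that of Igf1r was 0.061. The lower ends of both intervals lie above the log2 fold change of Kit.

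**Figure D1:**
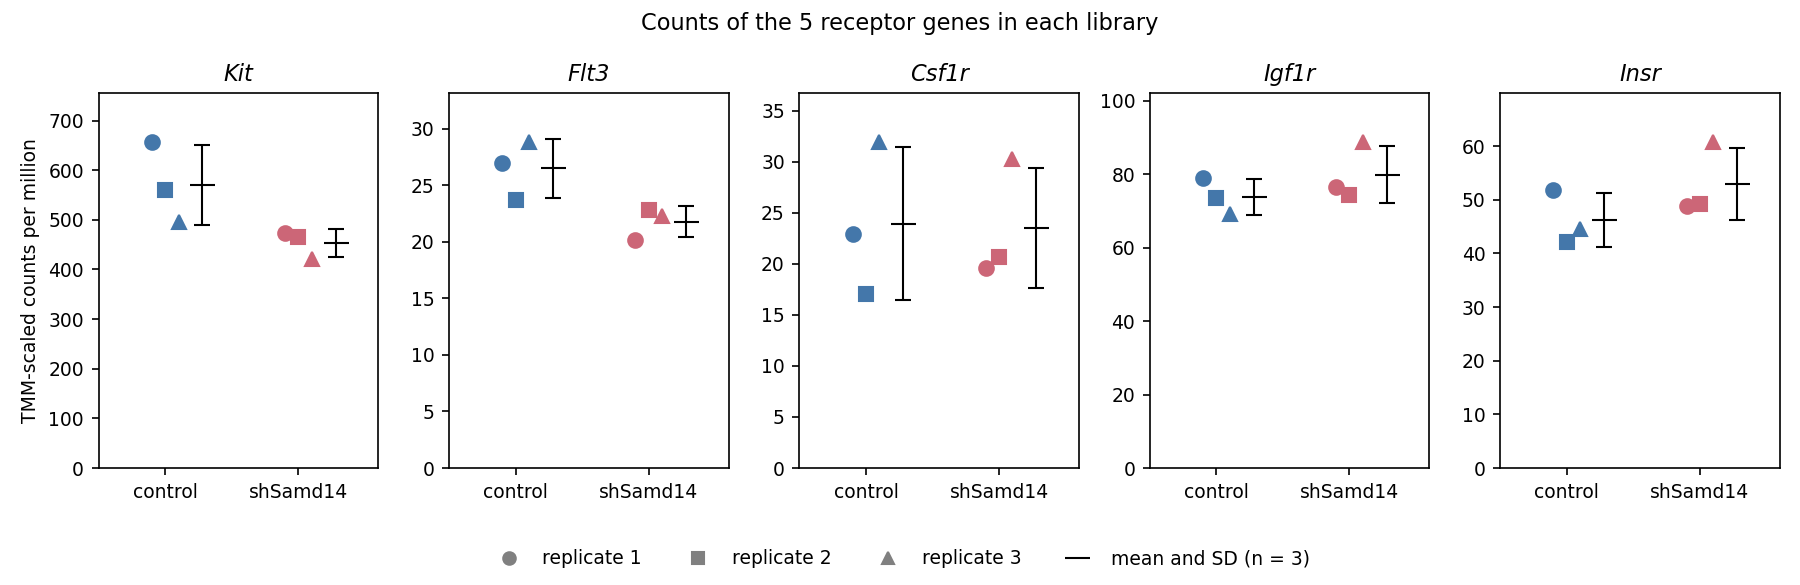
TMM-scaled CPM of Kit, Flt3, Csf1r, Igf1r and Insr in the 3 control and 3 shSamd14 libraries, with points for libraries, shapes for replicate numbers, and bars for the mean and SD (n = 3). Kit and Flt3 have no overlap between groups, with Kit at 422 to 474 CPM in shSamd14 against 495 to 656 CPM in control, while the groups of the other receptors overlap.

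To compare the change of Kit with that of each other receptor, the log2 ratio of Kit to that receptor was formed within each library and tested with limma beside the ratio of Kit to every other tested gene. The log2 ratio of Kit to Flt3 was 4.61, 4.56 and 4.10 in the control libraries and 4.55, 4.35 and 4.24 in the shSamd14 libraries. The groups overlapped, and the difference of -0.04 (95% interval -0.37 to 0.29, limma adjusted p = 0.833, exact permutation p = 0.8) was smaller than the spread within either group. The log2 ratio of Kit to Csf1r was 4.84, 5.04 and 3.95 in the control libraries and 4.59, 4.49 and 3.80 in the shSamd14 libraries. Replicate 3 was the lowest in both groups, and the difference of -0.32 (95% interval -0.66 to 0.02, limma adjusted p = 0.124, exact permutation p = 0.5) did not pass. The SDs of this ratio, 0.578 and 0.431 (n = 3 each), are wider than the moderated interval takes them to be. Without control replicate 3 the difference was -0.65, with a limma adjusted p of 0.000881.

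Against the insulin receptor family the ratio of Kit fell. The log2 ratio of Kit to Igf1r was 3.06, 2.93 and 2.84 in the control libraries and 2.63, 2.65 and 2.25 in the shSamd14 libraries. No libraries overlapped, and the difference was -0.43 (95% interval -0.72 to -0.14, limma adjusted p = 0.0323). The log2 ratio of Kit to Insr was 3.66, 3.73 and 3.47 in the control libraries and 3.28, 3.24 and 2.80 in the shSamd14 libraries. This ratio did not overlap either and differed by -0.52 (95% interval -0.82 to -0.21, limma adjusted p = 0.0187). For both ratios the two-sided exact permutation p was 0.1, the smallest that 3 against 3 libraries allow, and 0.2 after adjustment over the 4 ratios. Kit alone did not overlap between the groups either, and how many of its ratios to other genes lacked overlap was not counted. Every ratio holds the counts of Kit, and by the same limma rule the ratio of Kit to 21.9% of all other tested genes fell, so that Igf1r and Insr are 2 of 2771 such genes. Neither ratio passed when any library other than control replicate 3 was left out, with limma adjusted p of 0.0977 to 0.285 for Igf1r and 0.0601 to 0.262 for Insr. In this fit, over all 6 libraries, the ratios of Kit to Igf1r and Insr passed by limma, and those to Flt3 and Csf1r did not. The limma tests share the values of Kit and so are not independent. Their moderation pools the spread over ratios that all hold these same values of Kit. The limma intervals and p-values may therefore understate how uncertain the spread of Kit is with 3 libraries per group. The exact permutation could not decide, because its p cannot fall below 0.1 here.

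**Figure D2:**
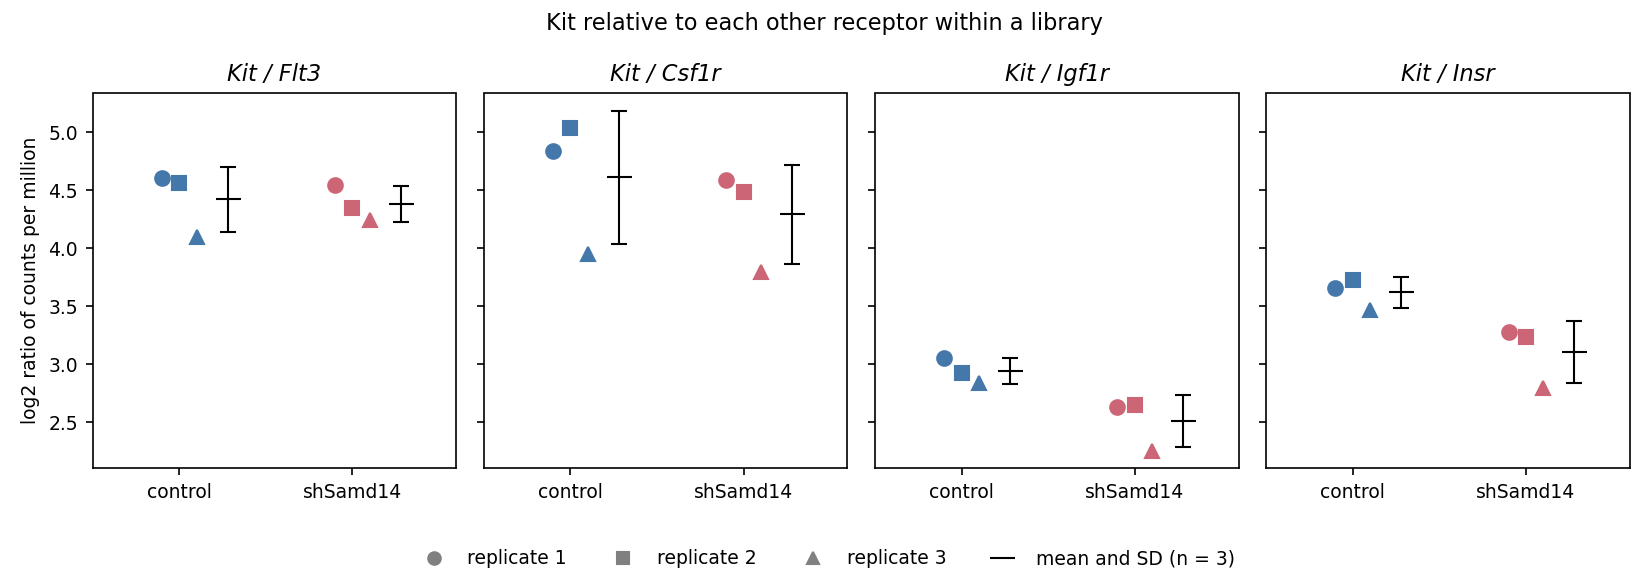
Log2 ratio of the CPM of Kit to those of Flt3, Csf1r, Igf1r and Insr within each library, by group, with the mean and SD (n = 3). The ratios to Igf1r and Insr are lower in all 3 shSamd14 libraries, by 0.43 and 0.52 on average, and the ratios to Flt3 and Csf1r overlap between groups, with replicate 3 low in both groups. Kit by itself is also lower in all 3 shSamd14 libraries.

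Per length, Kit was the most abundant receptor tyrosine kinase in these cells. Its level was 215, 174 and 154 TPM in the control libraries and 146, 148 and 138 TPM in the shSamd14 libraries. Over the 6 libraries Kit averaged 162 TPM, Igf1r 28.5, Csf1r 10.1, Insr 8.76 and Flt3 7.94. In that order the lowest library of Kit was far above the highest of Igf1r (33.9 TPM), and the lowest of Igf1r (25 TPM) was above the highest of Csf1r (13.3 TPM), but Csf1r, Insr and Flt3 overlapped over the libraries. Of 24376 genes, 917 had a higher mean TPM than Kit, 4751 than Igf1r, 7805 than Csf1r, 8124 than Insr and 8316 than Flt3. The level of Igf1r depends on the gene model: the deposited length was 4489 bases in every library, whereas its single listed transcript has 11409 bases in GENCODE M21, the annotation used here for names. For Insr both lengths were 9355 bases. For Flt3 the deposited mean lengths, 4771.12 to 5178.22 bases, exceed those of its listed transcripts found in GENCODE M21 (3657 and 3951 bases).

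Kit made up 60.0%, 57.3% and 54.0% of the summed TPM of all 58 receptor tyrosine kinases in the control libraries and 54.5%, 53.4% and 48.6% in the shSamd14 libraries. The groups overlapped at control replicate 3 and shSamd14 replicate 1, and the means of 57.1% ± 3.00 and 52.2% ± 3.16 (SD, n = 3 each) gave an exact permutation p of 0.2. The summed TPM of the 57 receptors other than Kit was 143, 129 and 131 in the control libraries and 122, 129 and 146 in the shSamd14 libraries, so it overlapped between the groups.

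**Figure D3:**
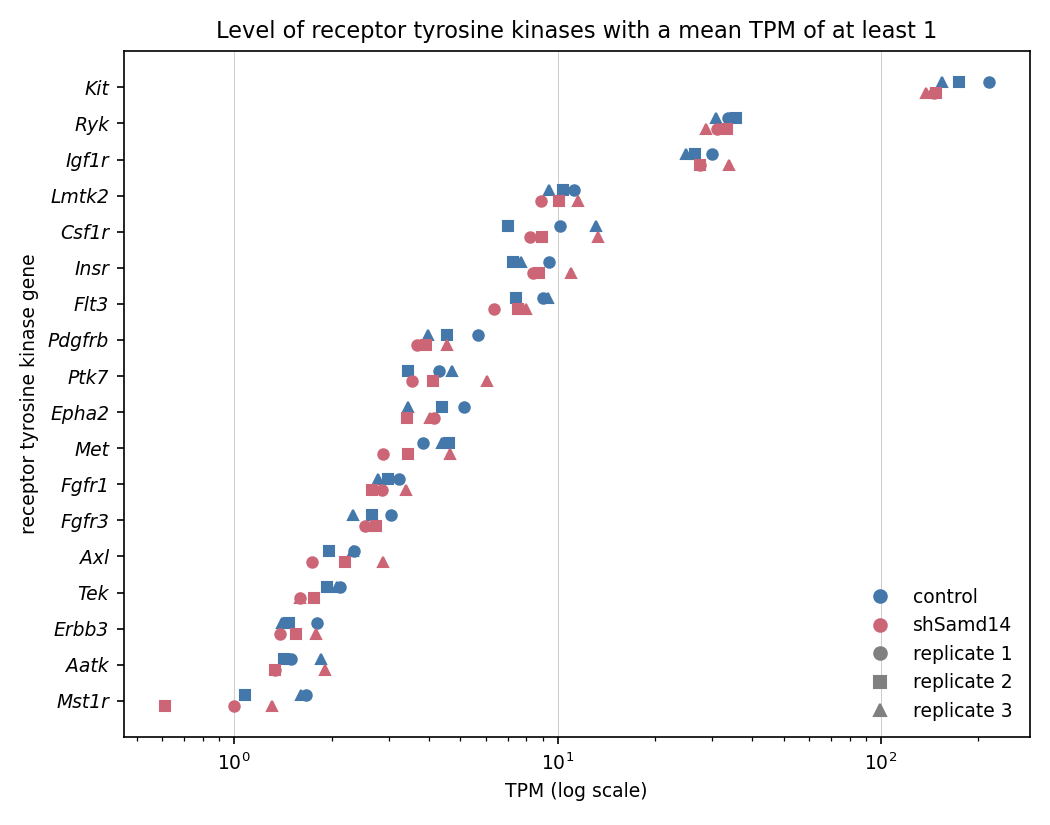
TPM, on a log axis, of the 18 receptor tyrosine kinases with a mean of at least 1 TPM, in the 3 control and 3 shSamd14 libraries, in order of their mean. Kit, at 138 to 215 TPM, stands apart from Ryk and Igf1r near 30, and the other genes lie below 14 TPM with control and shSamd14 points mixed in most rows.

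Among all receptor tyrosine kinases, none of the 25 tested was called lower or higher by edgeR, beside 1.26% and 1.32% of all tested genes. At an unadjusted p under 0.05, 4 were lower (Kit, Flt3, Tek and Mst1r) and 0 were higher, and no share of all tested genes is given beside this. DESeq2 called 1 of them lower, Kit, and limma-voom 0, beside 239 and 153 lower over all genes. The log2 fold change was negative for 15 and positive for 10, with a median of -0.03 against 0.01 over all tested genes. All shSamd14 libraries were below all control libraries for 3 of the 25 (Kit, Flt3 and Tek), beside 10.2% of all tested genes, and above them for 1, Ephb6, named after its values were seen and with 0.499 to 1.32 CPM in all libraries. The other 33 genes held too few counts to be tested, and among them Erbb2, Erbb4, Fgfr2, Fgfr4, Epha3, Ror2, Ros1 and Alk were at 0 in all libraries.

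The remaining class III receptors gave 1 further testable gene. Pdgfrb, a receptor of PDGF, measured 17.9, 15.2 and 13.3 CPM in the control libraries and 12.3, 12.7 and 14.4 CPM in the shSamd14 libraries, which overlap. Its log2 fold change was -0.23 (adjusted p = 0.381), and -0.12 without control replicate 1. Pdgfra, which neighbours Kit on chromosome 5 at 75152292 to 75198215, reached at most 0.0966 CPM, below the level of 3 counts. Kdr, the VEGF receptor on the other side of Kit at 75932827 to 75978458, measured 0.666 to 1.0 CPM in the control libraries and 0.815 to 0.998 CPM in the shSamd14 libraries. All 4 tested class III genes were below 0 in log2 fold change (median -0.26), although Csf1r, at -0.02, turned in sign in other fits. Both tested members of the insulin receptor family were above 0 (median 0.16). Of all 12670 tested genes, 6127 were below 0. The third member of the insulin receptor family, Insrr, reached at most 0.0483 CPM.

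Beyond these families, Tek, the angiopoietin receptor of endothelial and stem cells, measured 5.65, 5.18 and 5.66 CPM in the control libraries and 4.35, 4.65 and 4.11 CPM in the shSamd14 libraries. Its groups did not overlap, and its log2 fold change was as large as that of Kit, -0.33 (SE 0.139), with an adjusted p of 0.267. Mst1r, the receptor of macrophage-stimulating protein, measured 4.59, 3.14 and 4.66 CPM in the control libraries and 2.91, 1.72 and 3.59 CPM in the shSamd14 libraries. The groups of Mst1r overlapped, and its log2 fold change was -0.58 (SE 0.249; adjusted p = 0.293), or -0.34 without shSamd14 replicate 2. Ryk, a Wnt co-receptor and the second most abundant receptor of the list at 32.2 TPM, had a log2 fold change of -0.10 (adjusted p = 0.598). The other receptors with a mean of at least 1 TPM had log2 fold changes from -0.16 for Epha2, an ephrin receptor, to 0.12 for Ptk7, a Wnt pathway co-receptor. Between them lay Axl (-0.13), Met (-0.13), Aatk (-0.08), Lmtk2 (-0.03), Fgfr3 (-0.02), Erbb3 (0.01) and Fgfr1 (0.10), and none of these passed. For Lmtk2, Ptk7, Fgfr1, Fgfr3, Axl, Erbb3 and Aatk the sign turned in at least 1 of the other fits.

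**Figure D4:**
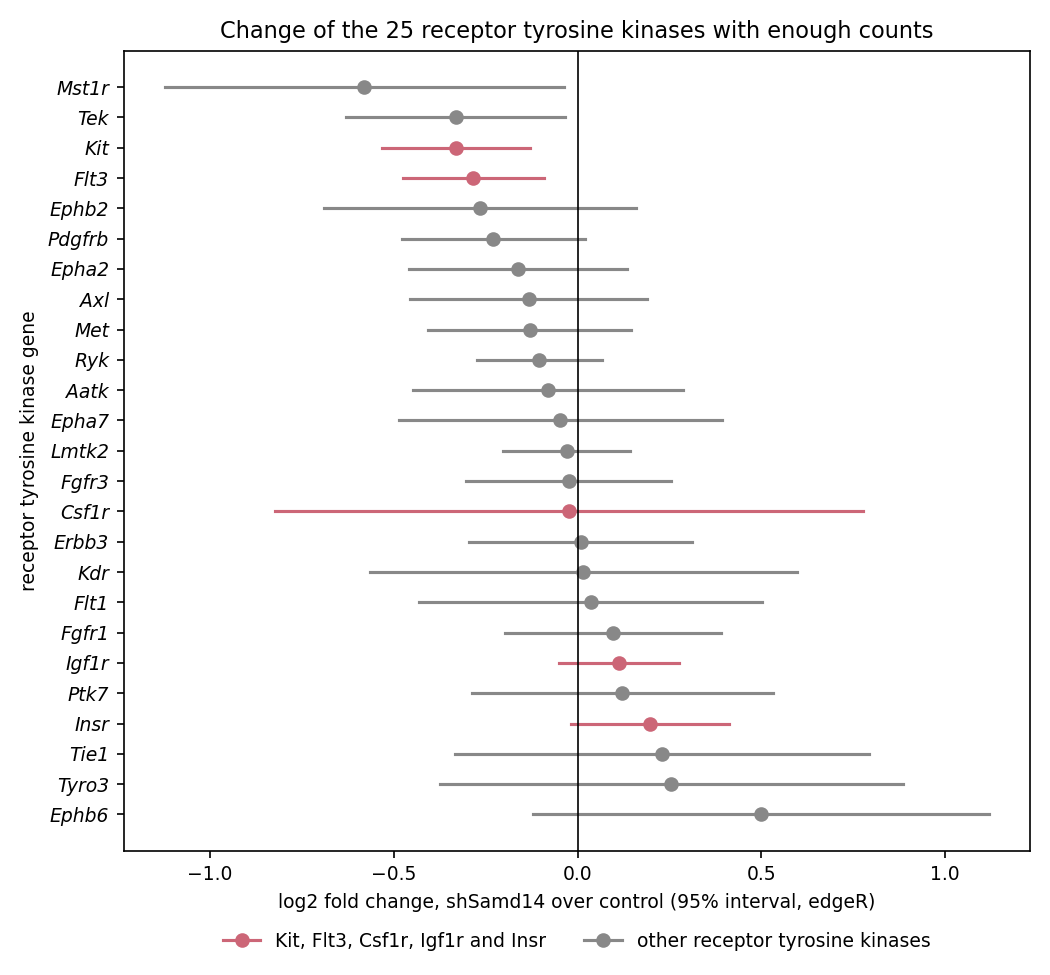
Log2 fold change of shSamd14 over control with its 95% interval (edgeR) for the 25 tested receptor tyrosine kinases, ordered by size, with Kit, Flt3, Csf1r, Igf1r and Insr in red. The intervals of Kit (-0.53 to -0.13), Flt3, Tek and Mst1r lie below 0, none passed the adjusted threshold, and the interval of Csf1r is the widest of the 5 red genes.

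Of the ligands of these receptors, Csf1 alone held enough counts to be tested, with 5.41, 4.18 and 5.83 CPM in the control libraries and 4.83, 4.02 and 5.56 CPM in the shSamd14 libraries, which overlap (adjusted p = 0.845). Kitl, which encodes stem cell factor, reached at most 0.0416 CPM, Igf1 and Il34 also stayed below the level of 3 counts, and Igf2 reached that level, 0.12 CPM, in shSamd14 replicate 1 alone. Ins1 and Ins2 were at 0 in all libraries, and Flt3l was not analysed here.

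Inside the cell, Kit passes its signal through adaptors, Src family kinases, PI3 kinase and Ras. Of 51 tested Kit signalling components 3 rose and 0 fell, beside 1.32% and 1.26% of all tested genes, and their median log2 fold change was -0.01. Ptpn11, the phosphatase SHP2, which relays receptor signals to Ras, rose from 132, 134 and 126 CPM to 199, 200 and 206 CPM, without overlap (log2 fold change 0.63, SE 0.057, adjusted p = 3.83e-05). Sos2, a Ras exchange factor, rose from 37.3, 37.0 and 33.8 CPM to 51.9, 54.9 and 57.1 CPM (log2 fold change 0.60, SE 0.07, adjusted p = 0.000313). Src, a kinase that binds activated receptors, rose at a low level, from 2.32, 1.70 and 1.62 CPM to 3.91, 3.52 and 2.89 CPM (log2 fold change 0.88, SE 0.202, adjusted p = 0.031). Src did not pass without control replicate 2 (adjusted p = 0.0889), control replicate 3 (0.101), shSamd14 replicate 1 (0.112) or shSamd14 replicate 2 (0.127). Nor did Src pass with length offsets (log2 fold change 0.75, adjusted p = 0.0732) or in limma on log2(TPM + 1) (0.41 on that scale, adjusted p = 0.178) and log2(TPM + 0.1) (0.70, adjusted p = 0.167).

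Of 21 genes that restrain Kit or carry it to degradation, 1 rose and 1 fell, beside 1.32% and 1.26% of all tested genes, with a median log2 fold change of -0.02. They were 2 related inhibitors of Ras signalling. Spred1 rose from 54.2, 51.2 and 45.3 CPM to 66.4, 76.4 and 66.6 CPM (log2 fold change 0.47, SE 0.08, adjusted p = 0.00572). Spred2 fell from 44.3, 44.9 and 39.3 CPM to 28.3, 26.0 and 27.1 CPM (log2 fold change -0.66, SE 0.076, adjusted p = 0.000313).

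Of 25 tested genes of insulin and IGF receptor signalling, 1 fell and 0 rose by edgeR, beside 1.26% and 1.32% of all tested genes, with a median log2 fold change of 0.00. At an unadjusted p under 0.05, 2 were lower and 2 higher, and DESeq2 called 1 lower and 1 higher, beside 239 and 189 over all genes. Igf2r, which clears IGF2 from the cell surface and carries lysosomal enzymes and is no tyrosine kinase, measured 200, 153 and 171 CPM in the control libraries. It measured 139, 136 and 133 CPM in the shSamd14 libraries, all below the controls (log2 fold change -0.36, SE 0.083, adjusted p = 0.0364). Without control replicate 2 Igf2r passed, and it did not pass without control replicate 1 (adjusted p = 0.11), control replicate 3 (0.0648), shSamd14 replicate 1 (0.056), shSamd14 replicate 2 (0.138) or shSamd14 replicate 3 (0.102). In limma on log2(TPM + 1) and on log2(TPM + 0.1) the adjusted p of Igf2r was 0.14.

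Of 20 transcription factors known to act at the Kit gene, none was called by edgeR, beside 1.26% lower and 1.32% higher of all tested genes. At an unadjusted p under 0.05, 6 were higher and 0 lower, and no share of all tested genes is given beside this. DESeq2 called 2 higher and 0 lower, beside 189 and 239 over all genes. The log2 fold changes of these factors were positive for 14. For 6 the shSamd14 libraries were all above the control libraries, beside 10.5% of all tested genes. The smallest p was that of Lmo2, a bridging protein of the complexes that GATA factors form, with 96.1, 110 and 98.4 CPM in the control libraries and 121, 123 and 117 CPM in the shSamd14 libraries (adjusted p = 0.0653). The call for Lmo2 turned on the fit, with an adjusted p of 0.0251 with no filter on low counts, 0.0362 without control replicate 2 and 0.0333 by DESeq2. Gata2, an activator of Kit in early progenitors, and named after its values were seen, measured 69.3, 80.2 and 64.9 CPM and 87.7, 83.3 and 84.2 CPM, without overlap (adjusted p = 0.106). Gata1, which takes over from GATA2 during erythroid maturation and is named likewise, measured 173 ± 2.92 and 183 ± 9.01 CPM (SD, n = 3 each; adjusted p = 0.586).

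Among 16 other cytokine receptors of progenitors 1 fell and 0 rose by edgeR, beside 1.26% and 1.32% of all tested genes, and the median log2 fold change was 0.01. At an unadjusted p under 0.05, 3 were lower and 1 was higher. DESeq2 called 2 lower and 0 higher, beside 239 and 189 over all genes. For 4 of the 16 every shSamd14 library was below every control library, beside 10.2% of all tested genes. Tgfbr2, a receptor of TGF-beta and a serine and threonine kinase, fell from 63.4, 51.5 and 52.9 CPM to 42.7, 43.5 and 41.0 CPM (log2 fold change -0.40, SE 0.08, adjusted p = 0.0158). It did not pass without control replicate 1 (adjusted p = 0.0613) or shSamd14 replicate 2 (0.0713), nor in limma on log2(TPM + 1) (0.1) or log2(TPM + 0.1) (0.101).

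Markers of erythroid cells, megakaryocytes and stem or multipotent progenitors included genes called higher, beside 1.32% of all tested genes. Sums over marker lists were not tested. The sum of erythroid markers was 2020, 1630 and 2420 CPM in control and 3040, 2520 and 2980 CPM in shSamd14, without overlap, and 1 of 9 was called higher (Car1, an abundant early erythroid enzyme). Of the 9, 8 had a positive log2 fold change. For 3 every shSamd14 library was above every control library, beside 10.5% of all tested genes. At an unadjusted edgeR p under 0.05, 3 were higher and 0 lower, and DESeq2 called 1 higher, beside 189 over all genes. Megakaryocyte markers summed to 409, 358 and 341 CPM and to 442, 459 and 459 CPM, also without overlap, with 2 of 7 called higher (Pf4 and Vwf, of platelet granules). All 7 had a positive log2 fold change, and 5 lay higher in every shSamd14 library than in any control library. At an unadjusted edgeR p under 0.05, 5 were higher and 0 lower, and DESeq2 called 4 higher. Stem and multipotent progenitor markers summed to 106 to 111 CPM in control and 112 to 128 CPM in shSamd14, with 1 of 6 tested called higher (Slamf1, or CD150). Of the 6 tested, 5 had a positive log2 fold change, and 2 lay higher in every shSamd14 library than in any control library. At an unadjusted edgeR p under 0.05, 2 were higher and 0 lower, and DESeq2 called 2 higher. Car1, Pf4, Vwf and Slamf1 were named after their values were seen. Mast cell markers, of interest because mast cells carry much Kit, summed to 241, 239 and 283 CPM and to 245, 257 and 321 CPM; Mcpt4 and Tpsab1 were at 0, and none of 5 tested was called by edgeR (1 higher at an unadjusted p under 0.05, 0 by DESeq2). Endothelial markers summed to 74.5 to 78.6 CPM and 68.4 to 76.5 CPM, with Cldn5 at 0. Dendritic cell markers summed to 23.1 to 24.7 and 22.7 to 26.8 CPM, hepatocyte markers to 24.2 to 47.3 and 19.8 to 29.6 CPM with Serpina1a at 0, lymphoid markers to 2.99 to 4.37 and 3.43 to 4.41 CPM, and stellate markers to 1.83 to 3.62 and 2.81 to 4.56 CPM with Col3a1, Dcn and Lum at 0. Neither edgeR nor DESeq2 called any gene of these 5 lists, and at an unadjusted edgeR p under 0.05 there were 1 higher and 1 lower endothelial gene and 1 higher stellate gene. The part of these cells in the lower Kit of the shSamd14 libraries was not tested.

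The genes whose log2 CPM followed each receptor most closely over the 6 libraries differed from receptor to receptor. By Pearson's r, given as a description of 6 libraries that share 2 groups, Kit was followed by Gopc (0.9974), 5430403G16Rik (0.997) and R3hdm1 (0.9889), and Flt3 by Cast (0.991), Atp6v1a (0.989) and Ccng1 (0.9864). Csf1r was followed by Ncf1 (0.9978), a subunit of the phagocyte NADPH oxidase, and by Gm2a (0.993) and Psap (0.9927), which encode lysosomal activator proteins. Igf1r was followed by Camkk2 (0.9867), Ubr4 (0.9814) and Pidd1 (0.9763), and Insr by Inka2 (0.9918), Clcn7 (0.9867) and Arfgef2 (0.9815). These genes were picked as the highest over all tested genes of at least 10 CPM, and such a choice by itself gives high values.

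Kit is known to be made in 2 forms that differ by 4 residues, GNNK, just outside the membrane. The annotation holds both, and the 12 coding bases that separate them are shown because the deposited gene length of Kit, a mean over its transcripts, could in principle tell them apart. They follow 1536 coding bases and stand in capitals here, with 9 bases on each side (GENCODE M21, plus strand).
Kit insert: gcatttaaaGGTAACAACAAAgagcaaatc
The annotated transcripts measure 5214 bases with the insert and 5241 bases without it, since their untranslated ends differ as well. The deposited length of Kit was 5225.74, 5227.46 and 5226.58 bases in the control libraries and 5229.10, 5227.42 and 5225.97 bases in the shSamd14 libraries. The groups overlapped, and no shift in length between them was detected. A share of each form was not computed, because the authors' lengths equalled those of GENCODE M21 for only 61.2% of genes with a single transcript.

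In their longest 3′ untranslated regions in GENCODE M21, Kit and Insr, but not the other receptors of the 5, hold certain 7-base words. An earlier search of these same libraries had linked these words to lower or higher transcripts, so that the words are no independent evidence here. CAAGTGT and AAGTGTA, which overlap in 6 bases, went with lower transcripts, and CTGATTA and TGATTAA, which also overlap in 6 bases, with higher ones. The longest 3′ untranslated region of Kit, of 2177 bases, holds CAAGTGT at position 1139 (chr5:75655673-75655701, plus strand, with its flanks) and AAGTGTA at position 1449 (chr5:75655983-75656011, plus strand), and that of Insr, of 4747 bases, holds CTGATTAA at position 2020 (chr8:3153632-3153659, minus strand). The stretches, in mm10 and in the sense of the transcript, carry the words in capitals.
Kit first site: cagtatctattCAAGTGTgtatgtgtgtg
Kit second site: aaacagatttaAAGTGTAccccgtagaca
Insr site: actggccaccCTGATTAAgaacacaagg
Flt3, Csf1r and Igf1r hold none of the 4 words in 430, 1669 and 7267 bases. The deposited gene model of Flt3 is longer than its transcripts in GENCODE M21 and may hold bases that were not searched. Of 11844 tested genes with a searched 3′ untranslated region of at least 50 bases, 21.7% hold CAAGTGT or AAGTGTA and 4.73% hold both, as Kit does. Of the genes with at least 1 of them 3.50% were called lower, of those with both 8.39%, and of all searched genes 1.33%. CTGATTA or TGATTAA is held by 14.4%, of which 5.81% were called higher, against 1.41% of all searched genes. Among the tested receptor tyrosine kinases, 8 hold CAAGTGT or AAGTGTA (Kit, Tek, Lmtk2, Erbb3, Fgfr1, Kdr, Tie1 and Ephb6), and 3 of these 8 lay below 0 in log2 fold change (median 0.01). Of the 17 without these words 12 lay below 0 (median -0.08). The stretch around the word in Tie1 crosses a splice junction, and whether it is coding in other Tie1 transcripts was not checked. A match of letters is not a site of action, and the part of these words in the levels of Kit or Insr was not tested.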

How the data were processed

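Polyadenylated RNA of 3 control and 3 shSamd14 libraries was compared. Per the submitters' processing notes, CASAVA 1.8.2, Bowtie 1.0.1, RSEM 1.2.15 and mm10 were used; their settings, strand use and the annotation release are not stated there. Per the file headers, the authors deposited expected counts (reads shared between genes in proportion where they map to several), TPM and FPKM per gene. FPKM served only as an alternative for the share of Kit. Of 24376 gene IDs, 23580 matched a symbol in GENCODE M21, built on GRCm38 (mm10), which also gave coordinates and sequences.

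Expected counts were rounded, filtered with filterByExpr (minimum count 10, minimum total 15, leaving 12670 genes), scaled with TMM and tested with edgeR 4.0.16 (robust quasi-likelihood, two-sided, Benjamini-Hochberg) in R 4.3.3. Log2 ratios of Kit to each other gene (TMM-scaled counts, prior of 0.5 counts) were tested with limma 3.58.1 with a trend, and with exact permutation over libraries. The scripts were tested on simulated data. Between libraries of a group the chi-square per gene was 5.73 to 12.2, well above sampling noise, so none was a duplicate. Alternatives were other size factors, filters and length offsets, a replicate block, limma-voom, DESeq2 1.42.0, limma on log2 of TPM with 1 or 0.1 added, and leaving out each library.

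The receptors, gene lists and words were chosen with earlier results of these data known. Named genes are the 5 receptors, Samd14, receptor tyrosine kinases with a mean of at least 1 TPM, up to 4 members of each other gene list past the threshold (or the smallest p where none passed), and the 3 genes with at least 10 CPM that correlate best with each receptor.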

Additional observations from a re-analysis of the deposited data

How the results depend on the processing

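The log2 fold changes of Kit, Flt3, Igf1r and Insr kept their sign in all 16 other fits. Kit passed with no filter (-0.33), with DESeq2 (-0.33) and without control replicate 3, and ranged from -0.43 to -0.22 when 1 library was left out; Flt3 ranged from -0.36 to -0.22, Igf1r from 0.03 to 0.16 and Insr from 0.08 to 0.28, none past the threshold. Csf1r turned to 0.018 on log2(TPM + 1) and 0.021 on log2(TPM + 0.1) and ranged from -0.25 to 0.24 without 1 library (0.24 without control replicate 3, 0.08 and 0.06 without shSamd14 replicates 1 and 2). The ratio of Kit to Flt3 ranged from -0.203 to 0.049 without 1 library (0.049, 0.027 and 0.027 without control replicates 1 and 2 and shSamd14 replicate 3), the ratio to Csf1r from -0.647 to -0.072, to Igf1r from -0.50 to -0.30 and to Insr from -0.60 to -0.36. The share of Kit changed by -4.94 percentage points, and by -6.49 to -3.14 without 1 library. Beside the 327 genes called by edgeR (167 higher, 160 lower), limma called 168 on log2(TPM + 1) (106 and 62) and 170 on log2(TPM + 0.1) (106 and 64), and how many are shared was not counted. With no filter 261 were lower, and without 1 library 128 to 283 were called (63 to 133 higher, 65 to 163 lower). Receptor tyrosine kinases called lower were 1 with no filter, 1 with DESeq2 and 0 to 1 without 1 library. Signs near 0 turned in the length-offset and both TPM fits for Fgfr1 (-0.018, -0.011 and -0.015), Axl (0.018, 0.014 and 0.013) and Csf1 (0.018, 0.015 and 0.015). They turned without 1 library for Lmtk2 (range -0.113 to 0.030, turned without shSamd14 replicate 1), Ptk7 (range -0.114 to 0.248, turned without shSamd14 replicate 3), Fgfr3 (range -0.112 to 0.044, turned without control replicate 1), Erbb3 (range -0.075 to 0.084, turned without control replicate 2 and control replicate 3 and shSamd14 replicate 3), Aatk (range -0.254 to 0.056, turned without control replicate 3 and shSamd14 replicate 2) and Csf1 (range -0.224 to 0.015, turned without control replicate 3 and shSamd14 replicate 2). Causes were not tested.

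The replicate numbers are not stated to pair the libraries. Deviations of same-numbered libraries from their group means correlated at -0.08, 0.20 and 0.34, and 3 of 6 libraries correlated best with their own number. With a replicate block Kit passed (-0.32, adjusted p = 0.00553 by edgeR), Flt3 did not (-0.28, adjusted p = 0.0607), the ratio of Kit to Csf1r passed (-0.32, limma adjusted p = 0.0233), and the ratios to Igf1r and Insr had limma adjusted p of 0.0035 and 0.00175. The block raised the called genes to 682 (322 higher, 360 lower) and the receptor tyrosine kinases called lower to 2, Kit and Mst1r, and Lmo2 passed (adjusted p = 0.0251 by edgeR).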
